A study of Mus musculus with 4 samples.

Results

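Rcn3, Dkkl1, Dhdh, Bcat2, Flt3l, Fuz, Irf3, Nup62, Pih1d1 and Ppp1r15a lie in a gene-dense stretch of mouse chromosome 7, on the side of Klf13 towards Nkg7. These 10 genes, of 19938 measured, were selected on their differences between Klf13 knockout and wild-type arrays, which had been seen when the list was drawn up, and on their place in the stretch. Their knockout-minus-wild-type differences are therefore given as a description, without a test. All 10 were found, and each was read from the single probe set that GEO's platform annotation pairs with that symbol alone, so no further probe set of any of them could serve as a check. In the order of RefSeq's GRCm38.p6 annotation, 206 measured genes lay between Nkg7 and Klf13, and the 10 held places 59 (Nup62) to 111 (Bcat2) counted from Nkg7.

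The cells were naive CD8 T cells, isolated from mouse spleen by fluorescence-activated sorting, of the genotypes Klf13 knockout (2 arrays) and wild type (2 arrays), and both genotypes were of the BALB/c strain. Each sample was read on its own 1-colour Affymetrix whole-transcript array, and values are log2 probe-set values. Age, sex and pooling of the animals, the deleted part of Klf13 and the breeding history of the allele are unknown here. Sequence inherited together with the targeted Klf13 allele and the loss of Klf13 itself cannot be told apart with these 4 arrays, for any gene linked to Klf13. Probe sequences were not used here, so for such genes a different RNA level and different binding of the probes to an inherited sequence variant cannot be told apart either, and higher and lower refer below to probe-set values.

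The 10 genes share a location and no common pathway. Rcn3 encodes a calcium-binding protein of the endoplasmic reticulum and secretory pathway, Dkkl1 a secreted protein related to the Dickkopf inhibitors of Wnt signalling and best known from mouse sperm, and Dhdh a dihydrodiol dehydrogenase. Irf3 is the transcription factor that switches on type I interferon genes when cytosolic nucleic acid is sensed, and Flt3l is the cytokine that drives dendritic cell and progenitor growth through its receptor Flt3, with T cells among its sources. Klf13 belongs to the SP/KLF family of zinc-finger factors, which bind GC boxes and CACCC boxes in promoters.

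Because that family binds such boxes, the promoters of 5 of the genes that lay furthest apart between the groups are shown, 3 lower and 2 higher in the knockout. Each sequence is the 250 bases before the gene's start as given by RefSeq for GRCm38.p6, written 5′ to 3′ on the gene's strand, with CACCC boxes (CACCC or GGGTG) and GC boxes (CCGCCC or GGGCGG) in capitals. The positions are chr7:45092214-45092463, minus strand, for Rcn3, chr7:45211884-45212133, minus strand, for Dkkl1, chr7:44997398-44997647, plus strand, for Irf3, chr7:45136433-45136682, minus strand, for Flt3l, and chr7:45569903-45570152, plus strand, for the first of the starts listed for Bcat2.
Rcn3: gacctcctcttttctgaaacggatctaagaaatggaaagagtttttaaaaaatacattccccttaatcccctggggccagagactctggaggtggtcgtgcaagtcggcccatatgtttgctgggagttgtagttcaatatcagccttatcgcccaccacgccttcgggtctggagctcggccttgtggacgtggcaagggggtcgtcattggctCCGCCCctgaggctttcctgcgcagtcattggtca
Dkkl1: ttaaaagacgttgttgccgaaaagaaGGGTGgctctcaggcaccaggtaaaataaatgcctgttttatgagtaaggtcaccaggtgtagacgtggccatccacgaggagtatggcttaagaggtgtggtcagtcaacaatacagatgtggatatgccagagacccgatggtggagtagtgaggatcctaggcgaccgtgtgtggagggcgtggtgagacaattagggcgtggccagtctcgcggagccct
Irf3: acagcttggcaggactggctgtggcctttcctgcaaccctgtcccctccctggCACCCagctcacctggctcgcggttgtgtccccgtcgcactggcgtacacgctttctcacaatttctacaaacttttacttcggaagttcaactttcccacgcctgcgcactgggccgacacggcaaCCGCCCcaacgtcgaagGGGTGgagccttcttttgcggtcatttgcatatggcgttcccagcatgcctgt
Flt3l: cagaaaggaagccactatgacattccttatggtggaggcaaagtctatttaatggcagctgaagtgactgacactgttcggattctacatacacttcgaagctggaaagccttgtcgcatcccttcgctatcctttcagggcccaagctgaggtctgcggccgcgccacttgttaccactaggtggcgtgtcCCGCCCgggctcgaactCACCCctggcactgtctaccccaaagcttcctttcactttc
Bcat2: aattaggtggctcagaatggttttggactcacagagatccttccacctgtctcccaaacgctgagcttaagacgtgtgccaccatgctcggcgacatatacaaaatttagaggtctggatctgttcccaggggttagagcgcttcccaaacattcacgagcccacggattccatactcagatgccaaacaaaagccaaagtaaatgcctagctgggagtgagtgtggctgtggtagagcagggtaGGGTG
The Rcn3 promoter held 1 GC box and 0 CACCC boxes, and that of Dkkl1 held 1 CACCC box and 0 GC boxes. The Irf3 promoter held 2 CACCC boxes and 1 GC box. Among those higher in the knockout, the Flt3l promoter held 1 of each and the Bcat2 promoter shown held 1 CACCC box.

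The promoter table held 11 starts for 9 of the 10 genes, all but Dhdh. A CACCC box on either strand was present in 6 of these 11 windows and in 52.0% of 32851 windows of the same length over all genes. A GC box was present in 5 of the 11 and in 32.7% of all windows. Neither was present in 4: those of Fuz and Ppp1r15a, and the further starts listed for Pih1d1 and Bcat2. The 2 motifs were counted separately, and a match to either may share bases with the other. The letters describe the windows only, and binding of Klf13 was not measured here.

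Klf13, the targeted gene, measured 5.46 and 5.43 in the knockout arrays, against 7.01 and 7.15 in the wild-type arrays. The labels and the gene's own probe set thus point the same way. Whether this probe set lies within the deleted part is unknown, and one outside it would be a weaker check. The CD8 chain genes Cd8a (means of 11.12 ± 0.02 in the knockout and 11.19 ± 0.09 in the wild type, SD, n = 2 each) and Cd8b1 (10.90 ± 0.02 in the knockout and 10.91 ± 0.07 in the wild type) were high in all 4 arrays. Of 7 measured CD8 T cell markers 0 passed the limma test over all genes at an adjusted p under 0.05, and 0 at an unadjusted p under 0.05, and their mean log2 level was 9.71 and 9.77 in the knockout arrays, against 9.77 and 9.78 in the wild-type arrays. Some markers of other cells differed: 3 of 8 neutrophil markers and 4 of 8 macrophage and dendritic cell markers rose, where 1.19% of all genes did. The neutrophil genes called were Mpo, Elane and Prtn3, while S100a8, S100a9, Ngp, Camp and Ltf did not pass. In the macrophage and dendritic list Lyz2, Csf1r, Mpeg1 and Tyrobp were called. Fcer1g, Itgax and Adgre1 were not, and Cd68 differed by -0.34 (limma adjusted p = 0.189). Of 7 B cell markers 0 passed, with 3 of them higher when the limma p was left unadjusted. Mean levels of the neutrophil list were 5.02 and 4.98 in the knockout arrays, against 4.15 and 4.26 in the wild-type arrays. For the macrophage and dendritic list they were 4.71 and 4.89 in the knockout arrays, against 4.32 and 4.28 in the wild-type arrays. For the B cell list they were 4.85 and 4.95, against 4.71 and 4.76. The part of these cells in the values of the 10 genes was not tested, and in sorted bulk RNA fewer cells of a type and less RNA per cell cannot be told apart.

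Rcn3 stood furthest apart. It measured 4.13 and 4.27 in the knockout arrays, against 6.42 and 6.48 in the wild-type arrays. Both knockout arrays lay 2.16 or more below both wild-type arrays, while the arrays of one genotype lay within 0.14 of each other. The means were 4.20 ± 0.10 in the knockout and 6.45 ± 0.04 in the wild type (SD, n = 2 each), a 4.77-fold lower level in the knockout (log2 difference -2.25, SE 0.10). The knockout values lay below the median of all probe sets on those arrays (4.36 and 4.31). Without detection calls they are not known to be above background, so the fold is that of the deposited values. Among all 19938 genes, only Nkg7 had a larger absolute difference.

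Dkkl1 followed among the lower genes. Its values were 4.85 and 4.95 in the knockout arrays, against 6.44 and 6.30 in the wild-type arrays. The groups were 1.35 apart at their closest, and the means of 4.90 ± 0.07 in the knockout and 6.37 ± 0.10 in the wild type (SD, n = 2 each) correspond to a 2.77-fold lower level (log2 difference -1.47, SE 0.10). The knockout values lay little above the median of the tested genes on those arrays (4.71 and 4.66). Whether they are above background was not assessed, so this fold too is that of the deposited values.

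Dhdh ran the other way. It measured 5.98 and 6.38 in the knockout arrays, against 4.54 and 4.66 in the wild-type arrays. The knockout arrays differed by 0.40 between themselves, more than the 0.12 of the wild-type arrays, yet the lower knockout array still lay 1.32 above the higher wild-type array. The means were 6.18 ± 0.28 in the knockout and 4.60 ± 0.09 in the wild type (SD, n = 2 each), which is 2.98-fold higher in the knockout (log2 difference 1.58, SE 0.13). The wild-type values lay close to the median of the tested genes on those arrays (4.59 and 4.61) and may be at background, which was not assessed, so this fold too is that of the deposited values. By absolute difference Dhdh ranked 11 and Dkkl1 ranked 14 of all genes, so 3 of the 10 stood among the 20 largest.

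**Figure D1:**
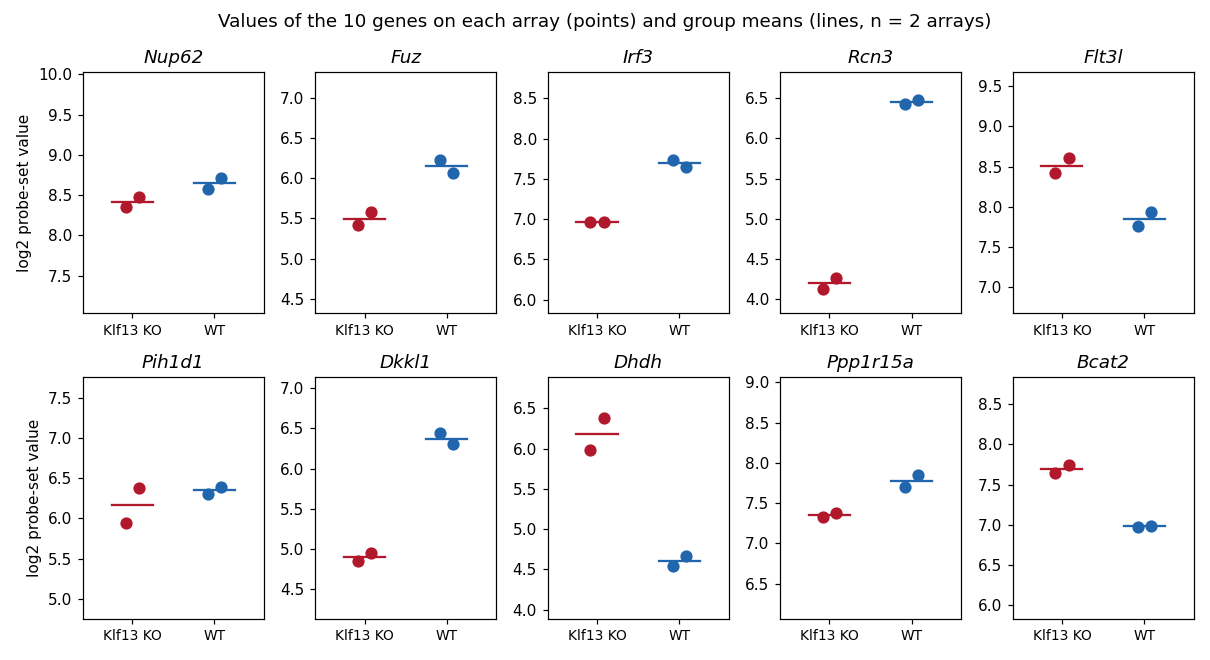
Log2 probe-set values (vertical axes, each spanning the same range of log2 units) of the 10 genes on the Klf13 knockout arrays (left, red) and wild-type arrays (right, blue), with points for arrays and lines for means of 2 arrays. Rcn3 at 4.13 and 4.27 against 6.42 and 6.48 shows the widest gap, and Pih1d1 is the gene whose groups overlap.

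Of the immune genes, Irf3 was lower. Its values were 6.96 and 6.97 in the knockout arrays, against 7.74 and 7.65 in the wild-type arrays. The knockout arrays lay within 0.01 of each other and 0.68 or more below the wild-type arrays, a 1.66-fold lower level in the knockout (log2 difference -0.73, SE 0.09).

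Flt3l was higher, at 8.42 and 8.60 in the knockout arrays, against 7.76 and 7.93 in the wild-type arrays. The lower knockout array lay 0.48 above the higher wild-type array. The level was 1.59-fold higher in the knockout (log2 difference 0.66, SE 0.11), with means of 8.51 ± 0.13 in the knockout and 7.84 ± 0.12 in the wild type (SD, n = 2 each).

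Bcat2, the mitochondrial aminotransferase that takes the amino group from leucine, isoleucine and valine, was also higher. It measured 7.64 and 7.74 in the knockout arrays, against 6.98 and 6.99 in the wild-type arrays. No array crossed to the other group, and the level was 1.63-fold higher in the knockout (log2 difference 0.71, SE 0.09). Bcat2 closes the row of the 10 on the side of Klf13.

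Fuz, which encodes a planar cell polarity effector needed for building cilia, was lower. It measured 5.42 and 5.58 in the knockout arrays, against 6.23 and 6.06 in the wild-type arrays. The groups were 0.48 apart at their closest, and the level was 1.57-fold lower in the knockout (log2 difference -0.65, SE 0.10).

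The other 3 genes lay closer together. Ppp1r15a, also called GADD34, encodes the subunit that directs protein phosphatase 1 to eIF2α and so ends the stress-induced block of translation. It measured 7.33 and 7.38 in the knockout arrays, against 7.71 and 7.85 in the wild-type arrays. The 2 groups were 0.33 apart at their closest (log2 difference -0.43, SE 0.10, 1.34-fold lower in the knockout). Nup62, a protein of the central channel of the nuclear pore, measured 8.36 and 8.48 in the knockout arrays, against 8.58 and 8.71 in the wild-type arrays. Its groups were 0.10 apart, less than the 0.12 and 0.13 between arrays of one genotype (log2 difference -0.23, SE 0.10).

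Pih1d1, a subunit of the R2TP co-chaperone, was the one gene whose groups overlapped. It measured 5.94 and 6.38 in the knockout arrays, against 6.31 and 6.39 in the wild-type arrays. The knockout arrays lay 0.44 apart, and the second of them fell between the wild-type arrays. The difference of -0.19 (SE 0.13) rested on knockout replicate 1, and without that array it was 0.03.

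In all, 6 of the 10 genes were lower and 3 higher in the knockout with groups that did not overlap. Over all 19938 genes, 23.2% were lower and 24.4% higher without overlap. The gap between the groups exceeded both within-group gaps for 8 of the 10. How often this holds over all genes was not counted. The absolute difference was above the 99th percentile of all genes (0.62) for 7 of the 10. As the list was drawn from this contrast, these counts describe the list and no more is read from them. The median difference of the 10 was -0.33, against 0.02 over all genes.

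The direction was not the same along the chromosome. From Nkg7 towards Klf13 the first 4 of the 10 (Nup62, Fuz, Irf3 and Rcn3) were lower in the knockout. Flt3l was then higher, Pih1d1 overlapped, Dkkl1 was lower, Dhdh higher, Ppp1r15a lower and Bcat2 higher. Of the 43 other measured genes between Nup62 and Bcat2, 40 did not pass limma over all genes (Benjamini-Hochberg adjusted p under 0.05), 1 rose and 2 fell, which is 6.98%, against 2.25% of all genes. Their median difference was 0.11, against 0.02 over all genes, and their median absolute difference was 0.18, against 0.10 over all genes.

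**Figure D2:**
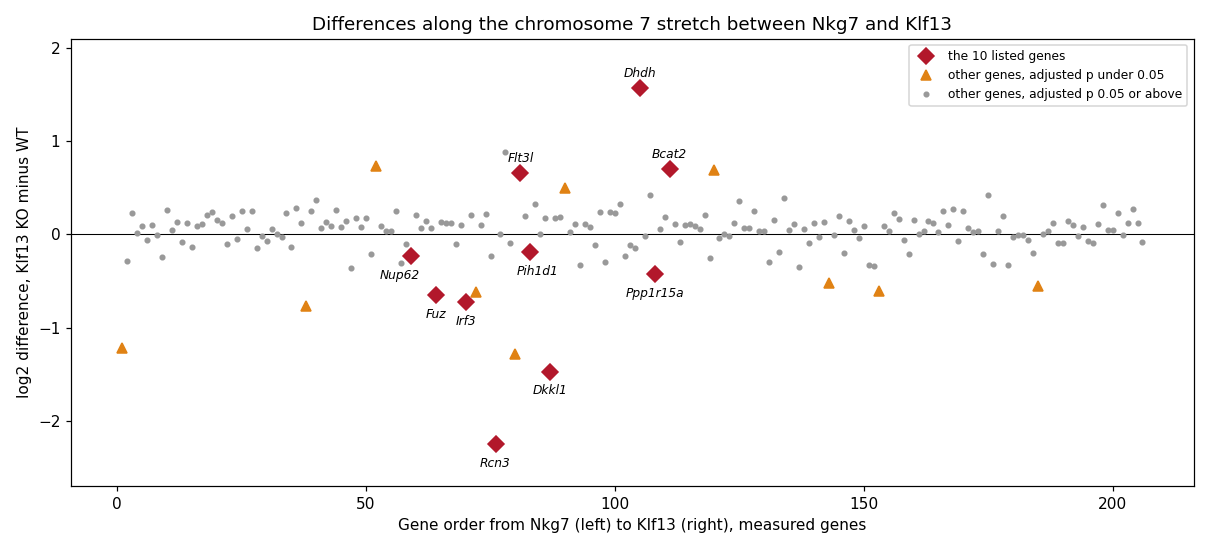
Log2 difference, Klf13 knockout minus wild type (vertical axis), of the 206 measured genes between Nkg7 and Klf13 in chromosome order (horizontal axis). Diamonds are the 10 listed genes, from -2.25 (Rcn3) to 1.58 (Dhdh), triangles the 10 other genes with an adjusted p under 0.05, and dots the rest.

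The nearest measured gene on either side was set beside each of the 10, which gave 19 different neighbours, since Aldh16a1 lies between Flt3l and Pih1d1. Of these 19, 1 passed the limma test (5.26%, against 2.25% of all genes), and their median absolute difference was 0.18, against 0.10 over all genes. That the neighbours lie closer to 0 than the 10 follows from how the 10 were chosen. On the sides of Rcn3, the E3 ligase gene Nosip differed by -0.23 (limma adjusted p = 0.252) and Mir150 by 0.01 (limma adjusted p = 0.980). Beside Dkkl1, Kash5 differed by 0.18 and the transcription factor gene Tead2 also by 0.18. Beside Dhdh, the ferritin light chain gene Ftl1 differed by -0.15 and Tulp2 by -0.02.

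The neighbour that passed was Snord33, a small nucleolar RNA gene next to Flt3l. It measured 6.97 and 7.20 in the knockout arrays, against 8.41 and 8.34 in the wild-type arrays. The groups did not overlap, and Snord33 fell by 1.29 in the knockout on the log2 scale (SE 0.10, limma adjusted p = 0.000230), whereas Flt3l beside it was higher. The small nucleolar RNA genes Snord35b and Snord35a, between Mir150 and Snord33, differed by 0.88 and -0.10 and were not called. They were named after their values were seen. Among the neighbours Nucb1, which encodes a calcium-binding Golgi protein and lies beside Ppp1r15a, came next at 0.43 (limma adjusted p = 0.0504).

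Of the other neighbours, Atf5 (-0.10) and Tbc1d17 (0.20) flank Nup62, Med25 (0.07) and Ap2a1 (0.13) flank Fuz, and Bcl2l12 (0.10) and Scaf1 (0.21) flank Irf3. Aldh16a1 differed by 0.20 and Slc17a7, on the other side of Pih1d1, by 0.32. Plekha4 (0.05), Hsd17b14 (0.19) and Fgf21 (0.11) lie around Ppp1r15a and Bcat2. None of these passed the limma test. In the promoter table, 3 of the 10 face such a neighbour head to head with starts within 1 kb. Irf3 and Bcl2l12 start 69 bases apart on opposite strands and differed by -0.73 and 0.10. Ppp1r15a and Plekha4 start 62 bases apart and differed by -0.43 and 0.05, and Nup62 and Atf5 start 430 bases apart and differed by -0.23 and -0.10. Whether the genes of a pair differ from each other was not tested, because one of each pair was chosen for its difference.

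**Figure D3:**
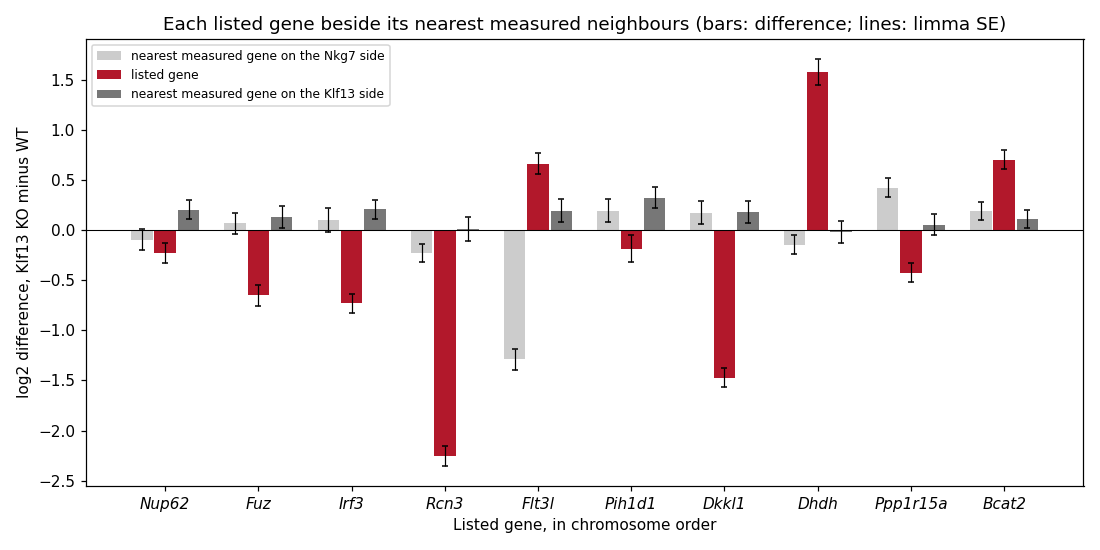
Log2 difference, Klf13 knockout minus wild type (vertical axis), of each of the 10 genes (red) and of the nearest measured gene on the Nkg7 side (light grey) and the Klf13 side (dark grey), with the limma SE as error bars. Rcn3 (-2.25) stands between -0.23 and 0.01, and beside Flt3l (0.66) the bar of -1.29 is Snord33.

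In the whole stretch, the 10 genes included, 6 of 206 genes were called higher and 11 lower in the knockout, where 1.19% and 1.05% of all genes were. Of these 17 calls, 7 were of the 10 genes chosen on this contrast, so nothing is read from the total. Without the 10, 3 of 196 genes were called higher and 7 lower, 5.10% against 2.21% on the other chromosomes and 1.83% on the rest of chromosome 7 without Klf13 and Nkg7. By section, again without the 10, 3 of 58 genes (5.17%) were called between Nkg7 and Nup62, 3 of 43 (6.98%) between Nup62 and Bcat2 and 4 of 95 (4.21%) between Bcat2 and Klf13, the section next to the targeted gene. Without knockout replicate 2 the calls in the whole stretch were 13 higher and 21 lower, in a fit that takes the lone knockout array to vary like the wild-type arrays. Centring each array on its median gave 7 higher and 20 lower in the whole stretch. Over all genes it gave 237 higher and 851 lower, against 238 and 210 before. A second quantile normalization gave 7 higher and 11 lower in the stretch, and 202 higher and 127 lower over all genes. These stretch counts also include the 10, so nothing is read from them. With limma p below 0.01 before adjustment and a change of 1.5-fold or more, 6 stretch genes were higher and 9 lower. Of these, 3 higher and 4 lower were of the 10. Without the 10, 3 of 196 genes were higher and 5 lower by this rule, where 0.697% and 0.492% of all genes were.

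The other called genes of the stretch, besides Snord33 and 1 unnamed clone, have diverse roles. On the side of Nkg7, Cldnd2, which encodes a claudin-domain membrane protein, measured 3.28 and 3.43 in the knockout arrays, against 4.78 and 4.37 in the wild-type arrays, and fell by 1.22 (limma adjusted p = 0.00126). The aspartic protease gene Napsa rose by 0.74 (limma adjusted p = 0.01). Between Irf3 and Rcn3, the small GTPase gene Rras measured 5.74 and 5.68 in the knockout arrays, against 6.29 and 6.36 in the wild-type arrays, and fell by 0.61 (limma adjusted p = 0.00800). Between Dkkl1 and Dhdh, the transporter gene Slc6a16 measured 3.83 and 3.64 in the knockout arrays, against 3.28 and 3.19 in the wild-type arrays. It rose by 0.50 (limma adjusted p = 0.0359). On the side of Klf13, the clock output factor gene Dbp rose by 0.69 (limma adjusted p = 0.00970) and the lactate dehydrogenase gene Ldha fell by 0.61 (limma adjusted p = 0.00970). The potassium channel gene Kcnc1 (-0.52, limma adjusted p = 0.0365) and the cytoskeletal gene Gas2 (-0.55, limma adjusted p = 0.0193) fell as well. Kcnc1 measured 3.90 and 3.66 in the knockout arrays, against 4.34 and 4.26 in the wild-type arrays. For Gas2 the values were 4.08 and 3.91, against 4.56 and 4.53. Slc6a16 and Kcnc1 lay below the median of all probe sets on all 4 arrays, and Cldnd2 and Gas2 on the knockout arrays. Without detection calls such values are not known to be above background.

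The partners of the 10 in their pathways were then read from lists by role. Of 61 partner genes measured, 1 rose and 0 fell by the limma test over all genes, which is 1.64% of them, and their median difference was -0.04. Before adjustment, 5 were higher and 6 lower at a limma p under 0.05, as were 7.85% and 8.75% of all genes. The gene that rose was Flt3, the receptor of Flt3l, found on progenitors and dendritic cells. It measured 5.24 and 5.28 in the knockout arrays, against 4.55 and 4.61 in the wild-type arrays. The groups did not overlap, and the log2 difference was 0.68 (SE 0.09, limma adjusted p = 0.00467). In the same arrays 3 of 8 neutrophil markers and 4 of 8 macrophage and dendritic cell markers were called higher, as given above. The part of such cells in the Flt3 value was not tested.

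For Irf3, 10 genes that lead to type I interferon were measured and 0 passed (1 was lower at an unadjusted limma p under 0.05). The kinase gene Tbk1, which phosphorylates the Irf3 protein, differed by -0.38 (limma adjusted p = 0.0660), and Ifnb1 by 0.22 (limma adjusted p = 0.320). For Ppp1r15a, 0 of 11 genes of the integrated stress response passed (3 were higher at the unadjusted p), with Trib3 at 0.32 (limma adjusted p = 0.179) and Chac1 at 0.25 (limma adjusted p = 0.239). For Bcat2, 0 of 7 genes of branched-chain amino acid breakdown passed (2 were lower at the unadjusted p), with the phosphatase gene Ppm1k at -0.32 (limma adjusted p = 0.152) and Dld at -0.25 (limma adjusted p = 0.227), and a median of -0.17.

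For Pih1d1, 0 of 8 genes of the R2TP and TTT complexes passed (3 were lower at the unadjusted limma p), and their differences lay between -0.37 and -0.04. Rpap3, the R2TP subunit that binds Pih1d1, differed by -0.37 (limma adjusted p = 0.141) and Znhit2 by -0.27 (limma adjusted p = 0.195). The third, Ruvbl2, an ATPase of the same complex, itself lies in the stretch between Dkkl1 and Dhdh and differed by -0.23 (limma adjusted p = 0.250); it was named after its value was seen. For Nup62, 0 of 12 nuclear pore genes passed, also before adjustment, among them Nup214 (-0.19, limma adjusted p = 0.421) and Nup107 (-0.18, limma adjusted p = 0.377). For Fuz, 0 of 4 genes of the ciliary CPLANE complex passed, also before adjustment, with Intu at 0.02 and Cplane1 at 0.03. Among the relatives of Rcn3, 0 of 4 passed (1 was higher at the unadjusted p), Rcn1 being at 0.26 (limma adjusted p = 0.237) and Sdf4 at -0.10. Of the 4 Dickkopf genes related to Dkkl1 0 passed, also before adjustment, and Dkk3 and Dkk4 differed by 0.08 and 0.06.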

How the data were processed

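The authors deposited log2 values per probe set for 4 Affymetrix arrays, 1 column per array. Per the submitters' processing notes the authors used RMA and Partek, whose versions are not given there. RMA evens out the arrays' distributions, so a shift of most genes in one direction would largely be removed, and it compresses differences of dim genes. The deposited distributions were not fully even. Upper quartiles over all probe sets were 6.52 and 6.63 in the knockout arrays, against 6.67 and 6.66 in the wild-type arrays. No detection calls were used here. The deposited log2 values ran from 1.34 to 13.5, and the number of arrays limits the precision.

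Of 35556 probe sets, 21789 were paired with 1 gene symbol, 1621 with several and 12146 with none. Symbols were updated by gene identifier to RefSeq (GRCm38.p6), which matched 21698. The files name no build, so that assembly served for names, gene order and promoter sequences. Where several single-gene probe sets named a gene, the brightest on average stood for it, giving 19938 genes, without a filter on level.

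Knockout and wild type were compared with limma 3.58.1 in R 4.3.3 (a two-sided test with genotype alone in the model, Benjamini-Hochberg over all genes, threshold 0.05; prior degrees of freedom 8.06). The script was tested on simulated data. Differences are knockout minus wild type on the log2 scale, with the SD over 2 arrays or the limma SE. Separate animals within a group are not stated in the labels, so the p-values reflect only how these samples scatter, which could be technical.

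The 10 genes, the partner and marker lists and the rules were chosen with earlier results of these data known. Named were the 10, Klf13 and Nkg7, their nearest measured neighbours, the called genes of the stretch (unnamed clones and small RNAs counted, and Snord33 named as a neighbour), the 2 partners of smallest p per list and, for Rcn3, Dkkl1 and Dhdh, the 3 genes with the most alike profile. Cd8a and Cd8b1 were named to check the cell type, and the markers of other cells after their values were seen. The alternatives were to test every single-gene probe set, to average a gene's probe sets, to keep the brighter genes alone, a second quantile normalization, median centring, robust moderation with a variance trend, a replicate block, another call rule, other bounds of the stretch and each array left out in turn.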

Additional observations from a re-analysis of the deposited data

How the results depend on the processing

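The differences of the 10 genes were recomputed under 9 other settings each, 90 values in all. Of these, 77 moved by less than the SD between arrays or not at all, and 12 moved by more with the same direction. The remaining 1 turned, that of Pih1d1, to 0.03 without knockout replicate 1 (-0.40 without knockout replicate 2). Testing every probe set, averaging probe sets and keeping the brighter genes could not change these differences, because each of the 10 has a single probe set. The unchanged values of those settings are counted in the 77 and say nothing about stability. Groups did not overlap for 9 of the 10 genes in every setting without an array left out. Among those settings, only the second quantile normalization and median centring changed the values of the 10. With an array left out the count was 9 to 10. Leaving an array out can remove an overlap but never make one, so nothing is read from that count. Counts of calls moved more. Over all genes, 448 calls became 1088 after median centring, 831 with a variance trend and robust moderation, 237 with the rule of p below 0.01 before adjustment and 1.5-fold or more, and 264 to 1536 with an array left out: 264 without knockout replicate 1, 1536 without knockout replicate 2 and 277 without wild-type replicate 1. In the stretch, the 11 lower calls became 20 after median centring, 17 with the trend, 6 from Nup62 to Bcat2 alone, 7 without the 10 genes (an alternative chosen after seeing the data) and 9 to 21 with an array left out. The 6 higher calls became 3 without the 10 genes and 5 to 13 with an array left out. Both highest counts came without knockout replicate 2. A fit with an array left out takes its spread from the other group's 2 arrays alone and assumes that the lone array varies like them. Of the partner genes 1 to 5 were called with an array left out, the 5 again without knockout replicate 2. With the replicate number as a block the calls were 1187 over all genes, 12 higher and 14 lower in the stretch and 3 among partner genes; equal numbers did not deviate together (r = 0.007 over genes), so the numbers were not taken as pairs. Median centring lowered every difference, because the median of the tested genes was higher in the knockout arrays (4.71 and 4.66) than in the wild-type arrays (4.59 and 4.61). The median difference over all genes went from 0.02 to -0.07. The cause of the other shifts was not tested. With 2 arrays a group, the knockout arrays (median absolute difference 0.13 over all genes) lay further apart than the wild-type arrays (0.07).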

Other observations

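Genes elsewhere in the genome had profiles much like those of Dkkl1 and Dhdh over the 4 arrays, measured as the root-mean-square distance between log2 values centred on each gene's own mean. Closest to Dkkl1 were Eomes, a T-box factor of memory CD8 T cells on chromosome 9 (distance 0.06), Snord33 of the same stretch (0.11) and Nsg2, a neuronal vesicle protein gene on chromosome 11 (0.13). Eomes measured 6.66 and 6.67 in the knockout arrays, against 8.12 and 8.11 in the wild-type arrays. Closest to Dhdh were the endothelial adhesion receptor gene Adgrl4 on chromosome 3 (0.06), the eosinophil granule gene Prg2 on chromosome 2 (0.07) and the neutrophil elastase gene Elane on chromosome 10 (0.09). Adgrl4 measured 5.51 and 5.96 in the knockout arrays, against 4.21 and 4.31 in the wild-type arrays, so that its second knockout array was the higher one, as for Dhdh. Rcn3 had no profile as close: the nearest were Klf13 itself (0.32), Dkkl1 (0.40) and Eomes (0.41). With 4 arrays in 2 groups these distances mostly reflect the size of the difference between genotypes.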
